A study of Mus musculus with 8 samples.

Results

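The thermogenic and beige fat genes were Ucp1, Cidea, Cox8b, Cox7a1, Kcnk3, Dio2, Elovl3, Otop1, Gk and Ppargc1a, 10 of the 20737 genes named on the array. They were chosen by symbol, with every probe set that carried one of these names, which gave 20 probe sets. The RNA was that of abdominal white fat from adult mice fed chow. The rsl strain was B10.D2.PL (rsl/rsl), and the wild type strain was B10.D2 (Rsl/Rsl). Rsl stands for regulator of sex-limitation, a pair of genes for KRAB zinc finger proteins, which are repressors known from the liver. The 4 groups were rsl males, wild type males, rsl females and wild type females, with 2 arrays each and RNA of 5 mice pooled on each array. The labels do not say whether both pools of a group shared mice, so each p-value reflects just the pool-to-pool spread, which may be technical. The Rsl genes and the other strain differences around them cannot be told apart in these groups.

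Heat production in brown and beige adipocytes starts when noradrenaline acts on beta-adrenergic receptors and raises cyclic AMP, which releases fatty acids and switches on Ucp1. The UCP1 protein lets protons pass the inner mitochondrial membrane without making ATP. Beige cells are thermogenic adipocytes that arise inside white depots, and their share differs between depots and with cold, hormones and sex.

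Promoters of Dio2, Ppargc1a, Gk and Cox8b are shown because Dio2 differed between the genotypes in females, Gk and Cox8b differed between the sexes in opposite directions, and Ppargc1a codes for a coactivator of this program. Each is the gene's strand from 250 bases before to 50 after the RefSeq start site on GRCm38.p6. Capitals mark TGACGT or its reverse complement ACGTCA, the core of the cyclic AMP response element.
Dio2, chr12:90738989-90739288, minus strand: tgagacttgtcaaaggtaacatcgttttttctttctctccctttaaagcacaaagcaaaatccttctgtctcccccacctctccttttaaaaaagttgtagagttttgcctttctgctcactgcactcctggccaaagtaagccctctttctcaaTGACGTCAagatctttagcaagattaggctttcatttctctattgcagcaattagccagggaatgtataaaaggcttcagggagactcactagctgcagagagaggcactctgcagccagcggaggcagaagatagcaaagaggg
Ppargc1a, chr5:51567676-51567975, minus strand: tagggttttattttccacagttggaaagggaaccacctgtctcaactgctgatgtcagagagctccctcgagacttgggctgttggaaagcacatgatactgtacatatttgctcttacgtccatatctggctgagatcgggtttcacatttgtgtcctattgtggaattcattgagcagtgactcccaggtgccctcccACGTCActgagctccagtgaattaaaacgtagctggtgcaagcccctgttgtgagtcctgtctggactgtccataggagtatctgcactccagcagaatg
Gk, chrX:85776770-85777069, minus strand: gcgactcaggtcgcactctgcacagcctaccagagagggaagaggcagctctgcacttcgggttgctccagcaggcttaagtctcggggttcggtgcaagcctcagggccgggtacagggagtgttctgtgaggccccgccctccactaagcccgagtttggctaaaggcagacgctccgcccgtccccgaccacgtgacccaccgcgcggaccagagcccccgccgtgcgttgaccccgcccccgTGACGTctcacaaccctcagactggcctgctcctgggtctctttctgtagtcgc
Cox8b, chr7:140900397-140900696, minus strand: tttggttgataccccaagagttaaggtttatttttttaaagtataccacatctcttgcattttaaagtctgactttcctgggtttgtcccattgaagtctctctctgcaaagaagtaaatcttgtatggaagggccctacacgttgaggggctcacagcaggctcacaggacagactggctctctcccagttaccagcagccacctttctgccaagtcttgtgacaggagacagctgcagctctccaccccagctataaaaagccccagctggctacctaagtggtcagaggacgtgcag

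Of the 10 genes, 7 had an entry in the promoter table, and 3 of these 7 held the motif on either strand, against 7.51% of all 32851 promoters of the same length. In Dio2 the matches on both strands overlap in 1 palindrome that starts at position -95 from the start site. The match of Ppargc1a starts at -50, and that of Gk at -4. No match lies in the Cox8b window. These letters are a description of the sequence and not a bound site.

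The arrays had median log2 signals of 4.54 to 4.58, with 62.8% to 71.0% of probe sets brighter than the array's background, taken as the brightest of 22 non-specific control probe sets. Rsl1 had signals of 3.56 to 3.98 in the rsl pools, against 4.62 to 5.25 in the wild type pools. One label field calls the source liver RNA, but white adipocyte markers averaged 10.82 to 11.65 in every pool and hepatocyte markers 4.19 to 6.11. Zic1 and Lhx8, which mark classical brown fat, were not above background on any array, and neither was Tbx1. All are on a list of 26 measured brown and beige markers. Of these, 20 were above background on every array, among them Ebf3, Eva1b and Epsti1. The list was not used to tell brown from beige cells. The pools of a group agreed less in males, where 723 (rsl) and 528 (wild type) probe sets lay at least 1 log2 unit apart, than in females, with 28 (rsl) and 5 (wild type). Male pools held epididymis transcripts, whose 12 markers averaged 12.14 and 11.64 in rsl males and 7.80 and 5.22 in wild type males, against 3.81 to 4.03 in the female pools. By this mean pool 1 had more of them in each male group. The mean of 7.80 joins separate levels: Crisp1, Lcn5, Adam7, Wfdc15b, Defb42 and Spint4 were at 11.04 to 12.60 in that pool. There Lcn8, Lcn9, Cst8, Cst11, Cst12 and Rnase10 were at only 3.25 to 4.32. The log2 signal ratio of the 3' to the 5' Gapdh control, a sign of RNA integrity, was 0.79 and 1.03 (rsl males), 0.68 and 0.71 (wild type males), 0.66 and 0.50 (rsl females) and 0.72 and 0.59 (wild type females).

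Most of the thermogenic genes were dimmer in male than in female fat. Averaged over genotype, 8 were lower and Gk alone was higher in males at a Benjamini-Hochberg adjusted p under 0.05 in limma's model, while Ppargc1a did not pass by its brightest probe set. Over all genes 11.4% were lower and 9.62% were higher by the same rule. The median difference of the 10 genes was -0.77 on the log2 scale, beside -0.01 for all genes. Without pool 1 of each male group, the one with more epididymis transcripts, 8 were lower and 2 (Gk and Ppargc1a) higher. That choice was made after seeing the data, and the rsl male pool kept was still at 11.64 for the epididymis markers, against 5.22 in the wild type male pool kept. Of the 8 lower genes, Otop1 was below background on every array and Ucp1 was above it on only 4. Dio2 and Elovl3 did not pass in wild type mice, at 0.02 (limma, adjusted p = 0.982) and -0.47 (adjusted p = 0.406). Without overlap of the 4 male and 4 female pools, 7 genes lay lower, beside 12.2% of all genes, and Gk higher, beside 10.1%. In bulk tissue, fewer cells of a type and less RNA per cell cannot be told apart. Hoxa9, a positional gene, was at 5.50 to 6.33 in male pools and 8.43 to 8.72 in female pools. A difference between the sexes and one between the sites the fat came from cannot be told apart in these groups.

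**Figure D1:**
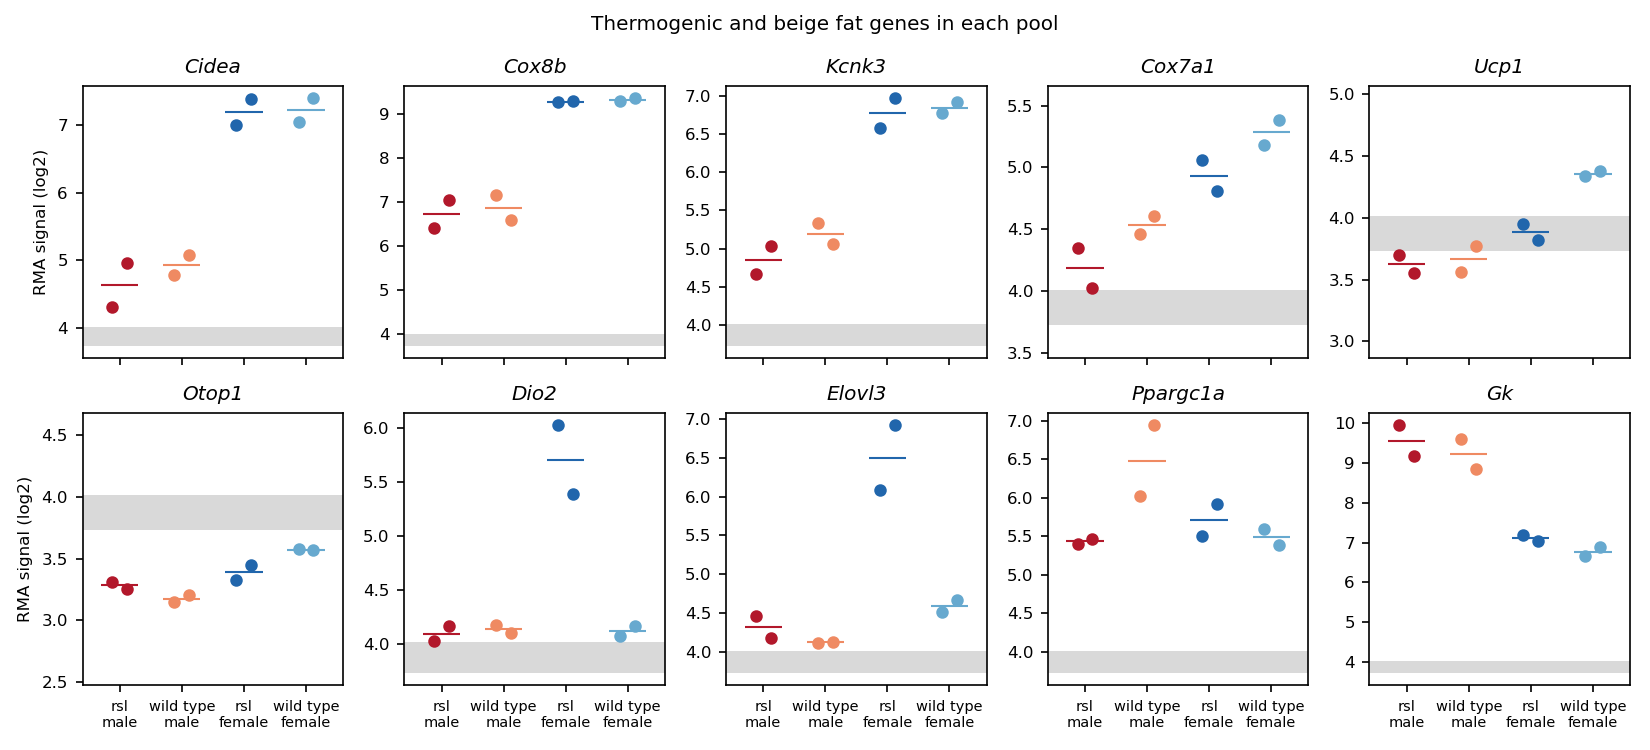
RMA signal (log2) of the brightest probe set of each gene in the 8 pools, where points are pools, short lines are group means, and the grey band spans the background bounds of the 8 arrays. Cidea, Cox8b and Kcnk3 lie lower in all 4 male pools than in any female pool, Gk lies higher, Dio2 and Elovl3 stand up in the rsl female pools, and Otop1 stays below the band.

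Cidea, which codes for a lipid droplet protein abundant in brown fat, had a log2 signal of 4.31 and 4.96 (rsl males), 4.78 and 5.07 (wild type males), 7.01 and 7.39 (rsl females) and 7.05 and 7.40 (wild type females). All male pools lay below all female pools, with a gap wider than the spread within either sex. The difference of males minus females was -2.43 ± 0.17 (SE, limma, adjusted p = 0.000505), which is 5.39-fold lower in males. It was -2.56 ± 0.24 in rsl mice (adjusted p = 0.00274) and -2.30 ± 0.24 in wild type mice (adjusted p = 0.00587).

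Cox8b, a subunit of cytochrome c oxidase found in brown fat and striated muscle, had a log2 signal of 6.42 and 7.05 (rsl males), 7.16 and 6.59 (wild type males), 9.27 and 9.30 (rsl females) and 9.30 and 9.36 (wild type females). The female pools were nearly level, the male pools scattered more, and the sexes did not overlap. Males were 5.67-fold lower, a difference of -2.50 ± 0.17 (SE, limma, adjusted p = 0.000402). Within the strains it was -2.55 ± 0.23 in rsl mice (adjusted p = 0.00249) and -2.45 ± 0.23 in wild type mice (adjusted p = 0.00403).

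Kcnk3, a tandem-pore potassium channel that is enriched in thermogenic adipocytes, had a log2 signal of 4.67 and 5.04 (rsl males), 5.33 and 5.06 (wild type males), 6.58 and 6.96 (rsl females) and 6.77 and 6.92 (wild type females). Again no male pool reached a female pool. The sex difference was -1.78 ± 0.13 (SE, limma, adjusted p = 0.0005), or 3.44-fold lower in males. The other two Kcnk3 probe sets were dim, above background on 2 and on 0 arrays, and did not pass the threshold in any comparison.

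Cox7a1, the muscle and brown fat isoform of another cytochrome c oxidase subunit, had a log2 signal of 4.35 and 4.03 (rsl males), 4.46 and 4.61 (wild type males), 5.06 and 4.81 (rsl females) and 5.18 and 5.39 (wild type females). The highest male pool was still below the lowest female pool. Its difference was smaller, -0.75 ± 0.10 (SE, limma, adjusted p = 0.00485), and was -0.75 in each strain, with adjusted p = 0.0206 in rsl mice and 0.0395 in wild type mice. The rsl call was lost when either rsl female pool was left out, at -0.62 (adjusted p = 0.122) without pool 1 and -0.87 (adjusted p = 0.0836) without pool 2. Without each array in turn the wild type adjusted p ran from 0.013 to 0.28.

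Ucp1, the uncoupling protein itself, had a log2 signal of 3.70 and 3.55 (rsl males), 3.56 and 3.77 (wild type males), 3.95 and 3.82 (rsl females) and 4.33 and 4.37 (wild type females). Only wild type females were above background in both pools, and both rsl male pools were below it. The averaged difference was -0.47 ± 0.07 (SE, limma, adjusted p = 0.00686), and in wild type mice it was -0.69 ± 0.10 (adjusted p = 0.0176). In rsl mice the difference was -0.26 ± 0.10 (adjusted p = 0.144). Both male pools and female pool 2 were below background there, so no fold is given. The wild type call was lost without wild type male pool 1 and without either wild type female pool. With each array left out in turn the wild type difference ran from -0.79 to -0.58. In females rsl minus wild type was -0.47 ± 0.10 (adjusted p = 0.194), with both rsl pools below both wild type pools. Otop1, which codes for a proton channel, ranged from 3.15 to 3.58 and was not above background on any array, so no fold is given, although its averaged difference had an adjusted p of 0.0213.

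Gk, glycerol kinase, which returns glycerol to triglyceride synthesis and is low in white adipocytes, went the other way. Its log2 signal was 9.95 and 9.17 (rsl males), 9.61 and 8.84 (wild type males), 7.18 and 7.03 (rsl females) and 6.65 and 6.88 (wild type females). All male pools were above all female pools. Males were 5.49-fold higher, a difference of 2.46 ± 0.22 (SE, limma, adjusted p = 0.0012), with 2.45 ± 0.31 in rsl mice (adjusted p = 0.00629) and 2.46 ± 0.31 in wild type mice (adjusted p = 0.0106). Its other two probe sets were also higher in males, by 2.22 ± 0.21 (adjusted p = 0.00151) and 0.42 ± 0.08 (adjusted p = 0.0148). The rsl call was lost without either rsl female pool, with adjusted p = 0.0571 without pool 1 and 0.0721 without pool 2.

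By strain, 7 of the 10 genes passed the threshold between the sexes in rsl mice (1 higher in males, 6 lower), beside 6.49% of all genes higher and 9.15% lower. In wild type mice 7 also passed (1 higher, 6 lower), beside 2.44% higher and 2.79% lower. Cidea, Cox8b, Kcnk3, Cox7a1 and Gk passed in both strains, Dio2 and Elovl3 passed in rsl mice, and Ucp1 and Otop1 passed in wild type mice. That a gene passed in 1 strain does not show that the strains differ, and the interaction, tested further on, passed for none of the 10. With either wild type female pool left out, 0 of the 10 passed in wild type mice: without pool 1 Cidea had -2.48 (adjusted p = 0.0502), Cox8b -2.48 (adjusted p = 0.0538) and Gk 2.34 (adjusted p = 0.108). Without pool 2 the same genes had -2.13 (adjusted p = 0.0828), -2.42 (adjusted p = 0.0655) and 2.58 (adjusted p = 0.103), so the sizes changed little. The wild type call of Cox7a1 held without either rsl male pool and was lost without any of the other 6 pools, with adjusted p up to 0.28.

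**Figure D2:**
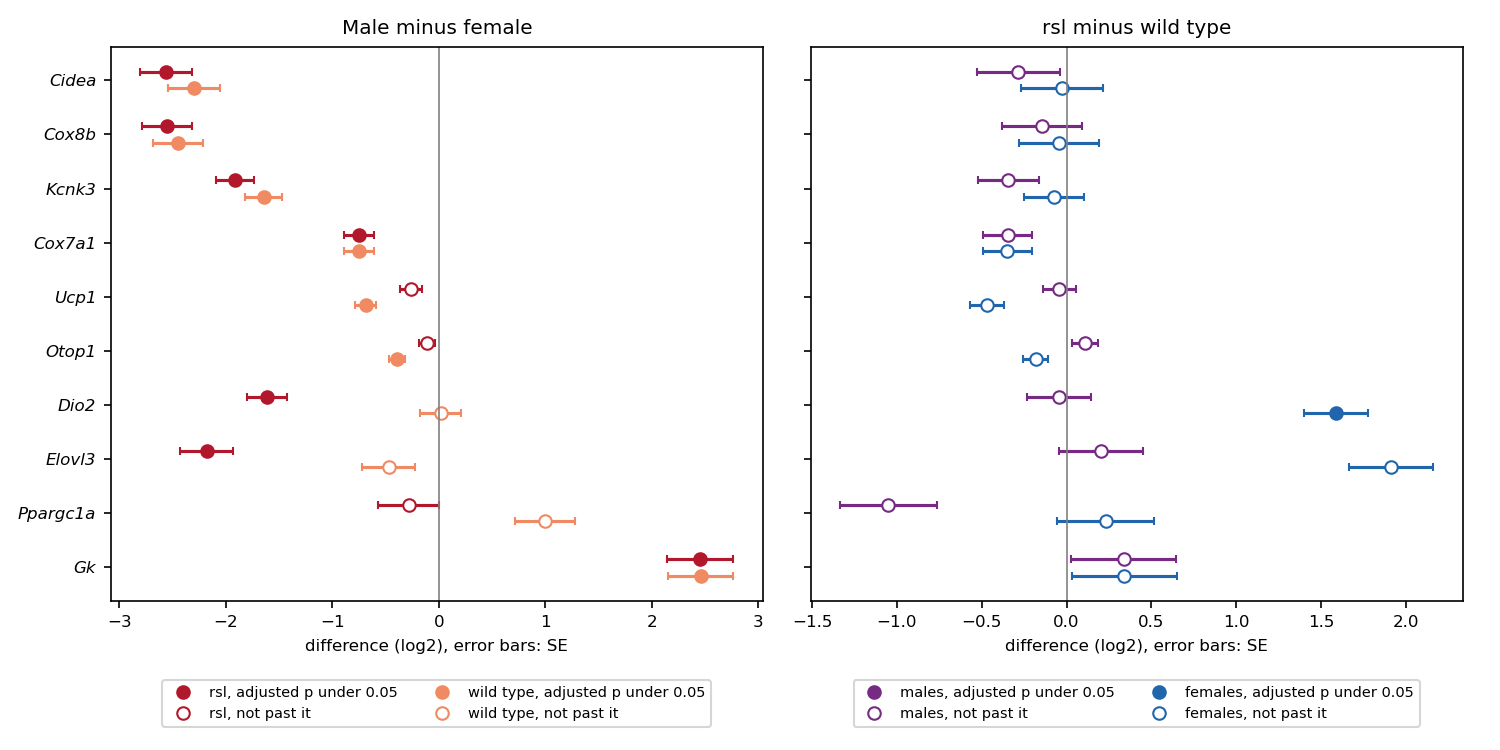
Difference on the log2 scale (horizontal axis, bars are SE of the model) of males minus females by strain on the left and of rsl minus wild type by sex on the right, for the brightest probe set of each gene. Filled points have an adjusted p under 0.05; on the left Cidea, Cox8b, Kcnk3, Cox7a1 and Gk are filled in both strains, and on the right only Dio2 in females is.

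Markers of other tissues moved with sex as well. The counts that follow stand beside 9.62% of all genes higher and 11.4% lower in males. The 15 skeletal muscle markers averaged 4.78 and 4.90 (rsl males), 4.84 and 4.76 (wild type males), 7.30 and 5.82 (rsl females) and 7.73 and 7.46 (wild type females), and 14 of 15 were lower in males. The second rsl female pool, lowest in muscle markers of the 4 female pools, was not the lowest of them for Cidea (7.39), Cox8b (9.30) or Kcnk3 (6.96), but was for Cox7a1 (4.81). Over the 4 female pools Cox8b ran only from 9.27 to 9.36. All 12 epididymis markers and 9 of 12 testis markers were higher in males, the testis list averaging 6.18 and 4.96 in rsl males and 6.49 and 6.65 in wild type males, against 4.15 to 4.19 in females. In the wild type male pool 2 the epididymis list was 5.22, the lowest in males, and the testis list 6.65, the highest. Gk was 8.84 there, the lowest of the male values and above every female pool. White adipocyte markers, 1 of 14 of them lower in males, averaged 10.82 to 11.65 in males and 11.43 to 11.60 in females, with the lowest value in rsl male pool 1. The 10 mammary epithelium markers, 5 of them higher in males, averaged 6.60 and 6.20 in rsl males and 6.07 and 5.34 in wild type males, against 5.09 and 5.14 in rsl females and 4.98 and 4.90 in wild type females. As with Gk, every male pool was above every female pool on this mean. Of the list, Krt8, Krt18 and Cldn3 were higher in every male pool than in any female pool. Csn2 and Elf5 were not above background on any array, and Csn3 and Wap overlapped between the sexes. The mean is therefore not a measure of mammary tissue alone. The part of these tissues in the sex differences was not tested.

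**Figure D3:**
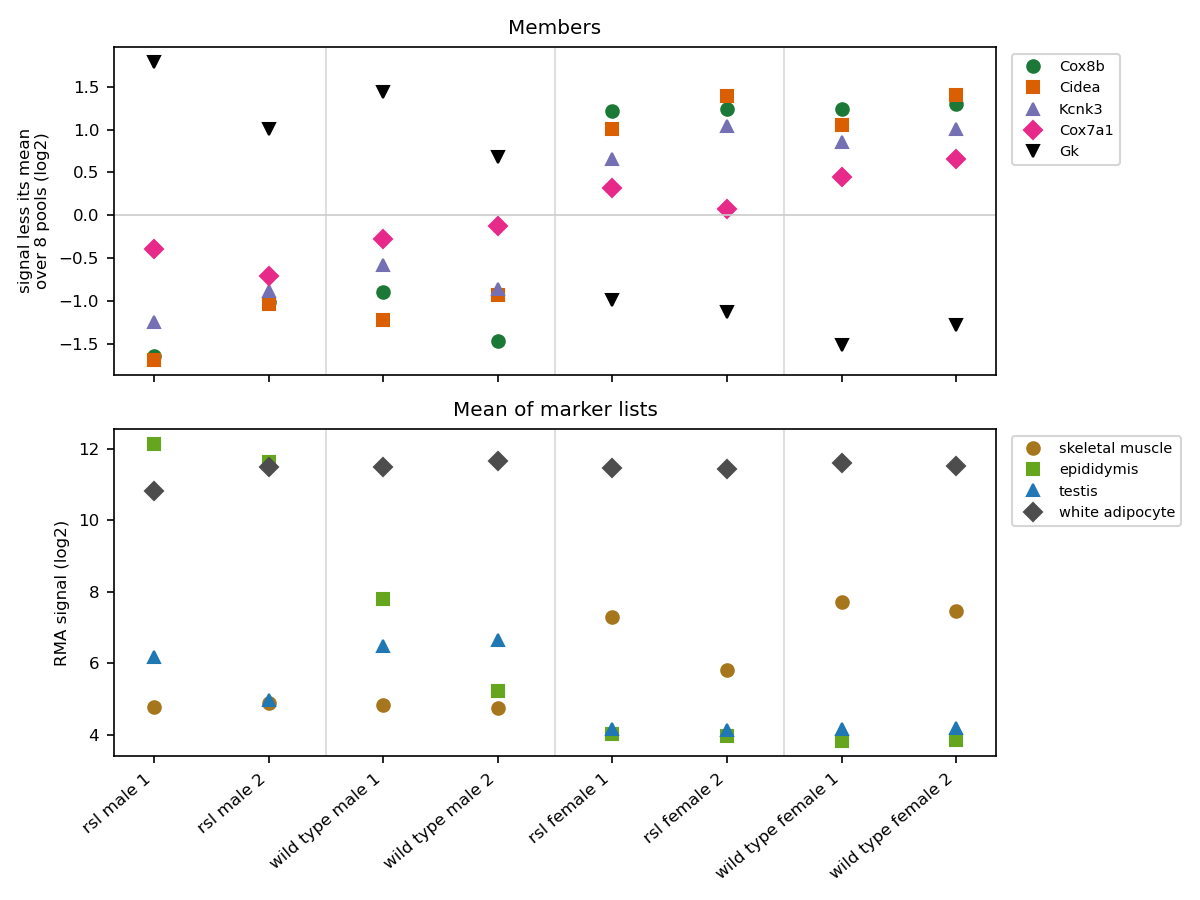
Upper panel, log2 signal of 5 genes less each gene's mean over the 8 pools; lower panel, mean log2 signal of 4 marker lists in the same pools. Muscle markers are at 5.82 in rsl female pool 2. Over the male pools epididymis markers run from 5.22 to 12.14 and Gk from 8.84 to 9.95. The part of these tissues in the 5 genes was not tested.

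The common isoforms of the Cox8b and Cox7a1 subunits did not pass the threshold between the sexes. Cox8a, the isoform of Cox8b found in most tissues, had a sex difference of -0.15 ± 0.06 (SE, limma, adjusted p = 0.136), and Cox7a2, the common partner of Cox7a1, of -0.15 ± 0.05 (adjusted p = 0.113). Cox6a2, another isoform of striated muscle and brown fat, was -0.70 ± 0.08 (adjusted p = 0.00271), while its common partner Cox6a1 was -0.14 ± 0.05 (adjusted p = 0.119). Cox6a2 had a log2 signal of 4.43 and 4.57 (rsl males), 4.49 and 4.38 (wild type males), 5.04 and 4.77 (rsl females) and 5.49 and 5.37 (wild type females). The lowest female value was in the pool with fewest muscle transcripts, and the part of muscle in these values was not tested. Of the 10 partner genes, 2 were higher and 2 lower in males, beside 9.62% and 11.4% of all genes. In limma's model 8 of the 10 had an unadjusted p under 0.05, beside 36.6% of all genes, so the common isoforms are not shown to be unchanged.

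**Figure D4:**
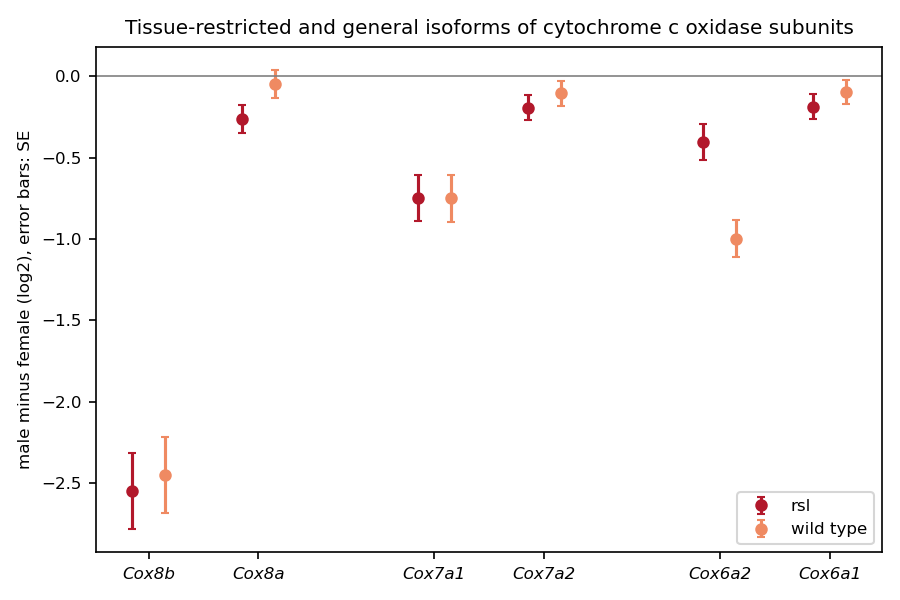
Males minus females on the log2 scale (vertical axis, bars are SE of the model) for tissue-restricted isoforms of 3 cytochrome c oxidase subunits, each left of its common partner, in rsl and wild type mice. Cox8b, Cox7a1 and Cox6a2 lie below their partners in both strains.

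Dio2 and Elovl3 showed a different pattern, with high values in rsl females. Dio2 codes for the deiodinase that turns thyroxine into active triiodothyronine inside the cell. Its log2 signal was 6.03 and 5.38 in rsl females, against 4.07 and 4.17 in wild type females, and it was 4.02 and 4.16 in rsl males, against 4.17 and 4.10 in wild type males. Both rsl female pools stood above the other 6 pools, which lay together.

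In females Dio2 was 3.01-fold higher in rsl than in wild type, a difference of 1.59 ± 0.19 (SE, limma, 95% interval 1.14 to 2.04, adjusted p = 0.0397). It was the only one of the 10 genes past the threshold in that comparison, beside 0.159% of all genes higher and 0.111% lower. The call rests on few arrays: without wild type female pool 1 or 2 the adjusted p was 0.407 and 0.401, without either wild type male pool 0.0626, and without rsl female pool 1 0.0635, with differences of 1.27 to 1.64 over these fits. With the replicate number as a block it was 0.0669. In males the difference was -0.05 ± 0.19 (adjusted p = 0.922). The second Dio2 probe set, at 4.05 and 4.13 in rsl females and 3.68 and 3.66 in wild type females, was also higher in both rsl pools. It was above background on only 2 arrays and did not pass, at least 1.18-fold higher in rsl females (limma, adjusted p = 0.12). The third was 3.91 and 3.82 in rsl females and 3.67 and 3.91 in wild type females, where the groups overlapped, and it was above background on 3 arrays.

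Elovl3, an elongase of very long fatty acids that cold induces in mouse brown fat, had a log2 signal of 6.08 and 6.92 in rsl females, against 4.52 and 4.67 in wild type females. In males it was 4.46 and 4.18 for rsl, against 4.11 and 4.13 for wild type. Both rsl female pools were well above all others. In females it was 3.76-fold higher in rsl, 1.91 ± 0.25 (SE, limma, 95% interval 1.32 to 2.50), but its adjusted p of 0.0502 missed the threshold. Averaged over sex it was 1.06 ± 0.18 (adjusted p = 0.0487), the only gene of the 10 past the threshold, beside 0.487% of all genes higher and 1.02% lower. That call was lost without either wild type male pool (adjusted p = 0.0565 and 0.122), either wild type female pool (0.202 and 0.227), rsl male pool 1 (0.0632) or rsl female pool 2 (0.0706). Dio2 averaged over sex was 0.77 ± 0.13 (adjusted p = 0.0534).

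Averaged over genotype, males minus females was -0.80 ± 0.13 for Dio2 (SE, limma, adjusted p = 0.01, and 0.0552 without wild type female pool 2) and -1.33 ± 0.18 for Elovl3 (adjusted p = 0.00454), both drawn from the rsl and wild type values that follow. Between the sexes within rsl mice, Dio2 was -1.62 ± 0.19 (SE, limma, adjusted p = 0.00504) and Elovl3 -2.18 ± 0.25 (adjusted p = 0.00459) in males minus females. In wild type mice Dio2 was 0.02 ± 0.19 (adjusted p = 0.982) and Elovl3 -0.47 ± 0.25 (adjusted p = 0.406). The difference of these differences, the interaction, was -1.63 ± 0.27 for Dio2 (adjusted p = 0.127) and -1.71 ± 0.35 for Elovl3 (adjusted p = 0.185). None of the 10 genes passed the interaction in limma's model, beside 0.101% of all genes, and 5 of the 10 had an unadjusted p under 0.05, beside 12.8% of all genes. Dio2 passed it without rsl male pool 2 (adjusted p = 0.0254), and Ppargc1a without wild type male pool 1 (adjusted p = 0.0439). Among marker lists, skeletal muscle averaged 7.30 and 5.82 in rsl females and 7.73 and 7.46 in wild type females, and mammary epithelium 5.09 and 5.14 in rsl females and 4.98 and 4.90 in wild type females. Between these groups 0 of the 15 muscle and 0 of the 10 mammary markers passed, beside 0.159% of all genes higher and 0.111% lower. The median difference was -1.24 for muscle and 0.12 for mammary markers, beside 0.02 for all genes. The part of these tissues in the Dio2 and Elovl3 values was not tested.

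Ppargc1a codes for a coactivator that raises mitochondrial genes when cells are stimulated through cyclic AMP. Its brightest probe set had a log2 signal of 5.40 and 5.47 (rsl males), 6.02 and 6.94 (wild type males), 5.51 and 5.92 (rsl females) and 5.59 and 5.38 (wild type females). Only the wild type male pools exceeded all others, and they lay nearly 1 log2 unit apart. In males rsl minus wild type was -1.05 ± 0.28 (SE, limma, 95% interval -1.72 to -0.38), with an unadjusted p of 0.00772 and an adjusted p of 0.113. Without wild type male pool 1, the lower of the 2, it was -1.51 (adjusted p = 0.0167), and without pool 2 it was -0.59 (adjusted p = 0.339). Hepatocyte markers averaged 4.21 and 4.27 in rsl males and 5.25 and 6.11 in wild type males, and their part in this difference was not tested.

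In males 0 of the 10 genes passed between rsl and wild type in limma's model, beside 1.77% of all genes, and 2 of the 10, Cox7a1 and Ppargc1a, had an unadjusted p under 0.05, beside 24.6% of all genes. In females 5 of the 10 had an unadjusted p under 0.05, beside 11.4% of all genes. Dio2 and Elovl3 were higher in rsl, and Ucp1, Cox7a1 and Otop1, the last below background throughout, were lower. The genes with the largest sex differences had, in females, rsl minus wild type of -0.03 (95% interval -0.60 to 0.55) for Cidea, -0.04 (-0.60 to 0.51) for Cox8b and 0.34 (-0.39 to 1.07) for Gk. Of the other Ppargc1a probe sets, 2 passed between the sexes, averaged over genotype. In limma's model 1 was 0.70 ± 0.15 higher in males (adjusted p = 0.0206), and the other 0.42 ± 0.09 higher (adjusted p = 0.0222). The latter was above background only in the wild type male pools, so no fold is given. The brightest probe set was 0.36 ± 0.20 (adjusted p = 0.285). Over both sexes, 0 of the 10 genes separated the 4 rsl pools from the 4 wild type pools without overlap, beside 8.85% of all genes.

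Some genes that regulate thermogenesis were lower in male fat. Of 26 regulators, 2 were higher and 6 lower in males, averaged over genotype, beside 9.62% of all genes higher and 11.4% lower. Their median difference was -0.09, beside -0.01 for all genes. In wild type mice 0 were higher and 2 lower, beside 2.44% and 2.79% of all genes. Irf4, a transcription factor that works with the Ppargc1a protein in brown fat, was -1.19 ± 0.15 (SE, limma, adjusted p = 0.00412), and Klb, the co-receptor of Fgf21, was -0.81 ± 0.12 (adjusted p = 0.00712). The nuclear receptor Esrrg was at least 1.51-fold higher in males (adjusted p = 0.00729). Adrb3, the beta-adrenergic receptor of adipocytes, and Prdm16, a brown fat coregulator, were named for their roles after their values were seen: Adrb3 ranged from 10.17 to 11.21 in males and 10.76 to 11.26 in females, and Prdm16 from 5.36 to 5.47 in males and 5.36 to 5.47 in females. Of 12 repressors of thermogenesis, 0 were higher and 1 was lower, Rb1 at -0.25 ± 0.06 (adjusted p = 0.0317).

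Among 26 measured brown and beige markers outside the 10 genes, 2 were higher and 9 lower in males, beside 9.62% and 11.4% of all genes. Slc36a2, a proton-coupled amino acid transporter of brown and beige fat, had a log2 signal of 6.84 and 6.89 (rsl males), 7.28 and 6.57 (wild type males), 9.32 and 9.43 (rsl females) and 9.23 and 9.28 (wild type females). Its difference of -2.42 ± 0.14 (SE, limma, adjusted p = 0.000282) was close to that of Cox8b. Slc27a1, a fatty acid transporter, was -1.22 ± 0.09 (adjusted p = 0.000521), and Hoxc9, a positional gene used as a marker of white and beige fat, was -0.52 ± 0.07 (adjusted p = 0.00392). Slc27a2, a fatty acid activating enzyme also strong in liver and kidney, was 2.65 ± 0.29 higher (adjusted p = 0.00228).

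Heat production without Ucp1, by the creatine cycle and calcium cycling, was covered by 11 genes. Of these 4 were higher and 1 lower in males, beside 9.62% and 11.4% of all genes. Gamt, which makes creatine, was 1.50 ± 0.31 (SE, limma, adjusted p = 0.0187) and Alpl, a phosphatase placed in the creatine cycle of mouse beige fat, 1.28 ± 0.21 (adjusted p = 0.00942). Alpl overlapped between the sexes, at 5.29 in wild type male pool 2 and 5.24 to 5.42 in females. In wild type mice 0 of the 11 genes were higher in males and 1 lower, beside 2.44% and 2.79% of all genes. Epididymis and testis markers were higher in the male pools, and their part in these values was not tested. Ckmt2, a mitochondrial creatine kinase, was lower but not above background in either sex.

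Relatives of the 10 genes did not share one direction. Ucp2, a carrier related to Ucp1 that is found in many cells, had a difference of rsl minus wild type of 1.15 ± 0.19 in males (SE, limma, adjusted p = 0.0468) and 0.89 ± 0.13 averaged over sex (adjusted p = 0.0375), from log2 signals of 8.50 and 8.93 (rsl males), 7.35 and 7.78 (wild type males), 8.13 and 8.19 (rsl females) and 7.68 and 7.39 (wild type females). Elovl6, which elongates palmitate and differs from Elovl3 in its substrates, was -2.52 ± 0.28 in males minus females (adjusted p = 0.00261), with no overlap of the sexes. Of the 15 measured relatives, 2 were higher and 3 lower in males, beside 9.62% and 11.4% of all genes.

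Profiles over the 8 pools were compared by the mean absolute difference of 2 centred profiles, in log2 units, as a description over shared samples. Slc36a2 was nearest to Cox8b (0.132), followed by Fgf13 (0.183) and Hoxa9 (0.194). Clca1 (0.0956), Pcsk4 (0.150) and Pigr (0.181) were nearest to Dio2, and both Pcsk4 (0.331) and Clca1 (0.350) also stood among the 3 nearest to Elovl3. Krt8 (0.172), Cds1 (0.198) and Wwc1 (0.209) were nearest to Gk, and Krt8 is itself one of the mammary epithelium markers. For Ppargc1a the nearest was Cyp2c50 (0.156), with Adrb1, a beta-adrenergic receptor, as close (0.156).

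**Figure D5:**
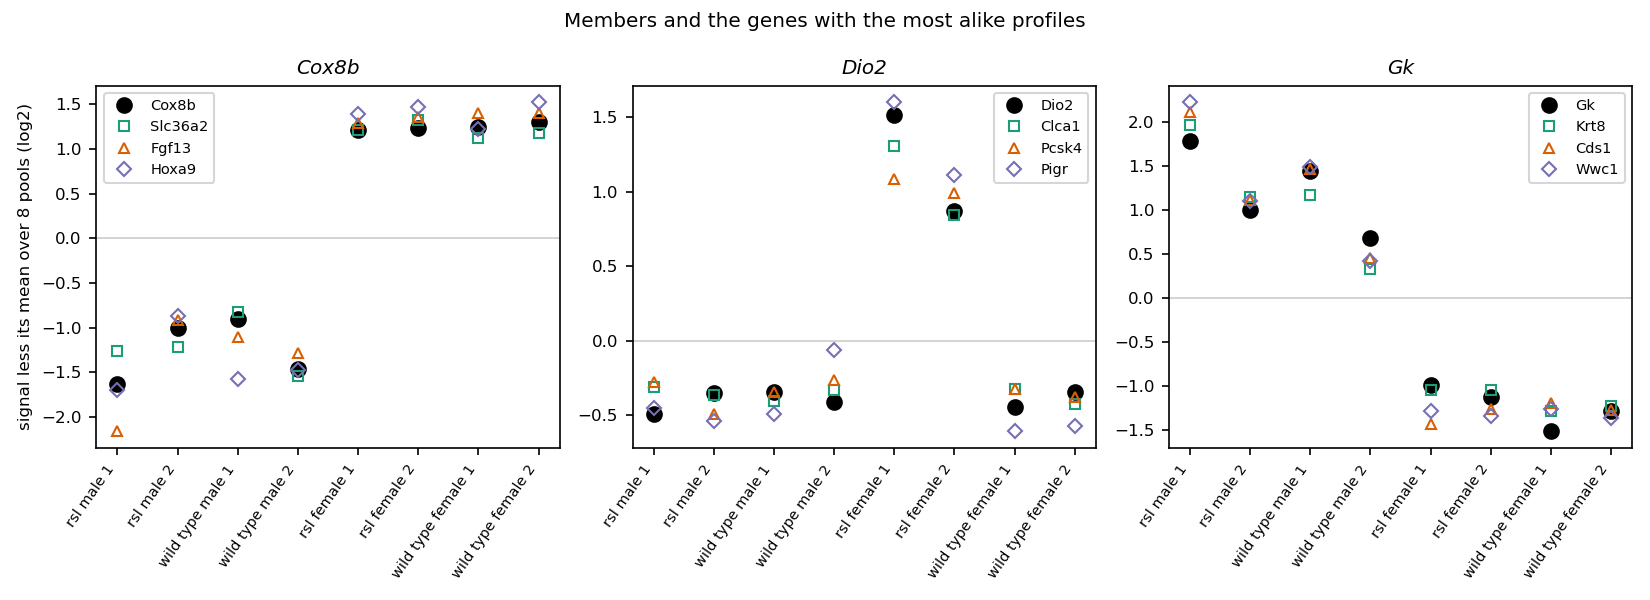
Log2 signal less its mean over the 8 pools for Cox8b, Dio2 and Gk and the 3 genes nearest to each by the mean absolute difference of centred profiles. Dio2 and its neighbours rise in the 2 rsl female pools and lie flat elsewhere, with Clca1 nearest at 0.0956.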

How the data were processed

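Each of 8 arrays (Affymetrix Mouse Genome 430 2.0 PM) measured RNA pooled from 5 mice, and 400 ng was labelled per array, per the labels. The deposited log2 values were made by the authors with RMA, per the submitters' processing notes, whose version is not given in the sources used here. The deposited annotation table holds the other unit, text for each probe set, and 8 columns of values that match no sample label and were not used. Of 45141 probe sets, 104 controls were set aside and 45037 tested. Names were updated through RefSeq (GRCm38.p6): 34512 by accession, 1097 by symbol or synonym and 2743 by deposited symbol only, while 15 named several genes and 6670 none.

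The probe set of highest mean signal stood for its gene. Background was the highest of 22 non-specific controls with GC counts 3 to 24 on each array, without GC 25, whose values had been seen when it was dropped. limma 3.58.1 (R 4.3.3) fitted the group means of all 8 arrays with 4 residual and 3 prior degrees of freedom, with p-values Benjamini-Hochberg adjusted over 45037 probe sets (threshold 0.05). Against a group at background, the fold was taken over the bound and is a minimum. No fold is given where the brighter group also held pools at background. The number of arrays limits the precision, and arrays give no read depth.

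The members and lists were chosen with earlier results of these data known. Named list genes are up to 6 called per list and comparison with the smallest p, plus all isoform partners and relatives. Replicate numbers gave correlations of deviations from -0.048 to 0.115 between groups, except 0.346 between the male groups, so they were not used as pairs. Alternatives were a 2-group fit, a replicate block, an intensity trend, a background filter, median centring, quantile normalization, array weights, gene means and leaving out each array, and, added after the data were seen, both male groups without pool 1, the one with more epididymis transcripts in each.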

Additional observations from a re-analysis of the deposited data

How the results depend on the processing

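No call reversed its direction under the alternatives tried. Counts of the 10 genes past the threshold were 9 between the sexes averaged over genotype (7 to 9 with an array left out), 7 in rsl mice (5 to 7) and 7 in wild type mice (0 to 7). Between rsl and wild type they were 0 in males (0 to 1 with an array left out), 1 in females (0 to 2) and 1 averaged over sex (0 to 2), and 0 for the interaction (0 to 1). In females the count was 3 in a fit of only the 2 groups compared and with array weights, 2 with an intensity trend, a background filter or quantile normalization, and 0 with gene means or the replicate block. Averaged over sex it was 2 with an intensity trend, the filter or array weights and 0 with gene means. The replicate block changed the count to 5 in wild type mice between the sexes. Without pool 1 of each male group, an alternative chosen after seeing the data, it was 2 in males, 3 in females, 6 averaged over sex and 3 for the interaction. The rsl male pool kept there was still rich in epididymis transcripts, and the 2 lone male pools leave the spread to the female pools. The cause was not tested.

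A lone pool left in a group is assumed to vary like the other groups. The 2-group fit does not exist for the averages and the interaction, and Otop1 was not tested under the filter. Over all probe sets, the calls between rsl and wild type in males were 594, against 0 in the 2-group fit, 1034 with the block, 300 with array weights, 310 with gene means and 3843 without pool 1 of each male group. In females they were 94, against 2009 in the 2-group fit, 529 with array weights, 48 with gene means and 2009 without those male pools. Averaged over sex they were 537, against 1004 with array weights, 229 with gene means and 5128 without those pools, and for the interaction 26, against 41 with an intensity trend, 76 with array weights and 2117 without those pools. Between the sexes they were 5559 in rsl mice, against 1862 in the 2-group fit and 3248 with gene means. In wild type mice they were 1725, against 3365 with array weights, 1033 with gene means and 4365 without those pools, and averaged over genotype 7568, against 4353 with gene means. Of single-gene checks, 363 kept direction and call and 50 kept direction only. Signal over background limits Ucp1 and Otop1, and with 2 pools a group the calls of Dio2 and Elovl3 lie near the threshold.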
